A study of Mus musculus with 2 samples.

Results

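Col6a1, Col6a2, Col6a3, Col8a1, Col12a1, Col14a1, Hmcn1 and Hmcn2, 8 of the 32285 genes counted, encode the collagen VI, VIII, XII and XIV chains and both hemicentins. They were described in single-cell RNA-seq libraries of cells sorted for tdTomato, the label of the Clec3b lineage, from mouse fracture calluses or intact femora. They were chosen by name after earlier results on these data had been seen, so their levels are given as a description. Each condition was 1 library pooled from 3 littermate mice labelled male, of the genotype Clec3b.creERT2; Ai14.R26.tdTomato. Tamoxifen was given 2 weeks before surgery at 6 weeks of age, and cells were collected 3 weeks after it. The callus library came from femora with a pinned osteotomy at mid-diaphysis, and the intact library from diaphyses without fracture, with surrounding muscle. The paper does not make clear whether muscle was also kept with the calluses, so dissected tissue and fracture cannot be told apart. Nor does it state whether both libraries came from the same mice. The creERT2 follows the Clec3b coding sequence in a knock-in allele, so only cells with Clec3b on at the time of tamoxifen, and their descendants, should carry tdTomato. Reads of tdTomato itself were not analysed here.

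UMIs (unique molecular identifiers) count captured RNA molecules. A barcode was kept when it had 500 genes or more and when mitochondrial transcripts made up no more than 10% of its UMIs, which left 1207 of 1872 barcodes in intact and 3295 of 3987 in callus, with median depths of 4939 and 6843 UMIs. Both libraries were mostly cells outside the fibroblast lineage: 740 intact and 2389 callus cells carried haematopoietic markers, and 72 and 216 were muscle fibre profiles. The paper found no meaningful tdTomato in haematopoietic and endothelial populations and read them as artefacts of the sort. It also described Clec3b as absent from the myogenic lineage. Haematopoietic, endothelial and myogenic cells are therefore not taken as Clec3b-lineage here. Among fibroblasts with at least 5000 UMIs, 97.5% of 197 in intact and 98.1% of 154 in callus carried Xist, against the label male. The libraries shared 1 barcode, which was a gated stromal cell in neither. Fibroblasts were named only by markers outside the 8 genes. They were Pi16-gated (Pi16, Sema3c, Dpp4; 210 intact and 121 callus cells), Col15a1-gated (Col15a1, Smoc2, Cxcl14; 45 and 20 cells), Thbs4-gated (Thbs4, Cilp, Fmod; 6 and 38 cells) or unresolved (24 and 32 cells), 285 intact and 211 callus fibroblasts in all. The callus also held 26 BMSC-gated cells (bone marrow stromal cells, with Lepr in 26 of 26) and 31 osteoblast-gated cells (Bglap in 29 of 31), each gate with 1 UMI of Clec3b. The intact library had only 2 and 1 such cells, the 2 BMSC-gated ones without a UMI of Lepr, and these were not used. Marker lists of haematopoietic, endothelial and myogenic cells summed to at most 66 counts per 1000000 UMIs (CPM) in any fibroblast gate of either library. The mural list summed to 306 CPM in the 6 intact Thbs4-gated cells and to at most 102 CPM in the other fibroblast gates. The osteoblast list summed to 1637 CPM in intact and 504 CPM in callus Pi16-gated cells, and to at most 273 CPM in the other fibroblast gates. It summed to 53999 CPM in osteoblast-gated callus cells. The muscle fibre list summed to 157 to 197 CPM in the intact and 240 to 278 CPM in the callus fibroblast gates, and its part in the results was not tested.

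Collagen VI is assembled from 3 different chains into beaded filaments that lie close to cell surfaces and basement membranes, and its loss causes muscle disease with joint contractures. Collagens XII and XIV are fibril-associated collagens with interrupted triple helices, which sit on collagen I fibrils and are abundant in tendon, fascia and periosteum. Collagen VIII is a short-chain, network-forming collagen known from vessel walls and remodelling tissue, and hemicentins are very large extracellular proteins that anchor cells to basement membranes and to one another. UMIs were read from the 3′ ends of transcripts, so a level is a share of molecules and was not divided by transcript length.

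All 8 genes are protein-coding. On GRCm38, Col6a1 (ENSMUSG00000001119) lies at chr10:76708792-76726168 and Col6a2 (ENSMUSG00000020241) at chr10:76595762-76623630, both on the minus strand and 85161 bp apart, whereas Col6a3 (ENSMUSG00000048126) lies on another chromosome, at chr1:90765923-90843971. Col8a1 is at chr16:57624258-57754737, Col12a1 at chr9:79598991-79718831, Col14a1 at chr15:55307750-55520803, Hmcn1 at chr1:150562524-150993435 and Hmcn2 at chr2:31314415-31460738. Hmcn1 spans 430912 bp. The sequences just upstream of the 3 collagen VI gene starts in the GENCODE annotation are printed. They were chosen because the levels of these chains moved together in the fibroblast gates and came apart in the BMSC and myogenic progenitor gates. They are from RefSeq (GRCm38.p6), 5′ to 3′ on the minus strand, and capitals mark the GC box, GGGCGG or its complement CCGCCC.
Col6a1, chr10:76726169-76726294: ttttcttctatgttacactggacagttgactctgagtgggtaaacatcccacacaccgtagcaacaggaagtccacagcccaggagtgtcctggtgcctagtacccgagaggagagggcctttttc
Col6a2, chr10:76623631-76623880: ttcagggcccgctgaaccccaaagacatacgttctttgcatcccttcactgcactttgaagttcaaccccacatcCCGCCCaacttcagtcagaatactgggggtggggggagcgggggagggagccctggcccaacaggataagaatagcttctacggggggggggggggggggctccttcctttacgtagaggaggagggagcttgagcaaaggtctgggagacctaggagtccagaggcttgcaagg
Col6a3, chr1:90843972-90844221: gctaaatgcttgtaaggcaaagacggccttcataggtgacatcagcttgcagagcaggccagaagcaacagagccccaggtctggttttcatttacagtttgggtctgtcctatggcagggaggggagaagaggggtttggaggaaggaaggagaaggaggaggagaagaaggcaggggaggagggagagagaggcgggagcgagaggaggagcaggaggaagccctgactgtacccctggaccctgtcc
A GC box stood in 1 of the 3 windows, that of Col6a2. Of all 32851 RefSeq promoter windows, 32.7% held one when cut to 250 bases and 13.5% when cut to 126 bases, the length printed for Col6a1. Each cut kept the bases farthest upstream. The Col6a1 window stops at the GENCODE gene start, and bases of its entry nearer the RefSeq start were not searched. Neither TATAAA nor CCAAT, searched on both strands, was present in any of the 3, against 12.4% and 33.8% of all windows at 250 bases and 6.26% and 16.9% at the 126 bases of Col6a1. The promoter table held entries for 6 of the 8 genes. It held 2 for Col6a2, and the one printed is the farther upstream, since the other lies mostly inside the annotated gene. That other entry held 3 GC boxes and neither TATAAA nor CCAAT in its first 250 bases.

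Collagen VI was carried by nearly every fibroblast of both libraries. At least 1 UMI of Col6a1, the alpha-1 chain, was present in 273 of 285 intact and 204 of 211 callus fibroblasts, and 5 intact and 1 callus fibroblasts had no UMI of any of the 3 chains. Haematopoietic-gated cells, which should lack the gene, carried it in 4 of 740 (0.541%) and 10 of 2389 (0.419%). The Col15a1-gated cells had the highest collagen VI level of the fibroblast gates in each library. Col6a1 stood at 1832 CPM there in intact (95% exact Poisson interval 1689 to 1985) and at 856 (810 to 904) in Pi16-gated cells. The corresponding callus values were 1657 (1463 to 1871) and 1028 (964 to 1096). Col6a3, the large alpha-3 chain, differed most between these gates, 2234 CPM against 639 in intact and 1562 against 655 in callus, ratios of 3.5 (95% exact conditional interval 3.17 to 3.85) and 2.38 (2.05 to 2.77). Thbs4-gated callus cells lay between the Pi16 and Col15a1 gates for all 3 chains, at 1234, 858 and 894 CPM for Col6a1, Col6a2 and Col6a3. All intervals cover counting error only, since cells of 1 library are not replicates, and no test between conditions was possible.

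Between callus and intact, the collagen VI chains differed little within a gate. In Pi16-gated cells Col6a1 was 1.20-fold higher in callus (1.10 to 1.31), Col6a2 1.11-fold (0.992 to 1.23) and Col6a3 1.03-fold (0.924 to 1.14). In Col15a1-gated cells all 3 values were lower in callus, Col6a3 by 1.43-fold (1.24 to 1.66), Col6a2 by 1.29-fold (1.09 to 1.53) and Col6a1 by 1.11-fold (0.955 to 1.28). None of these reached 2-fold in any of the 4 fibroblast gates.

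**Figure D1:**
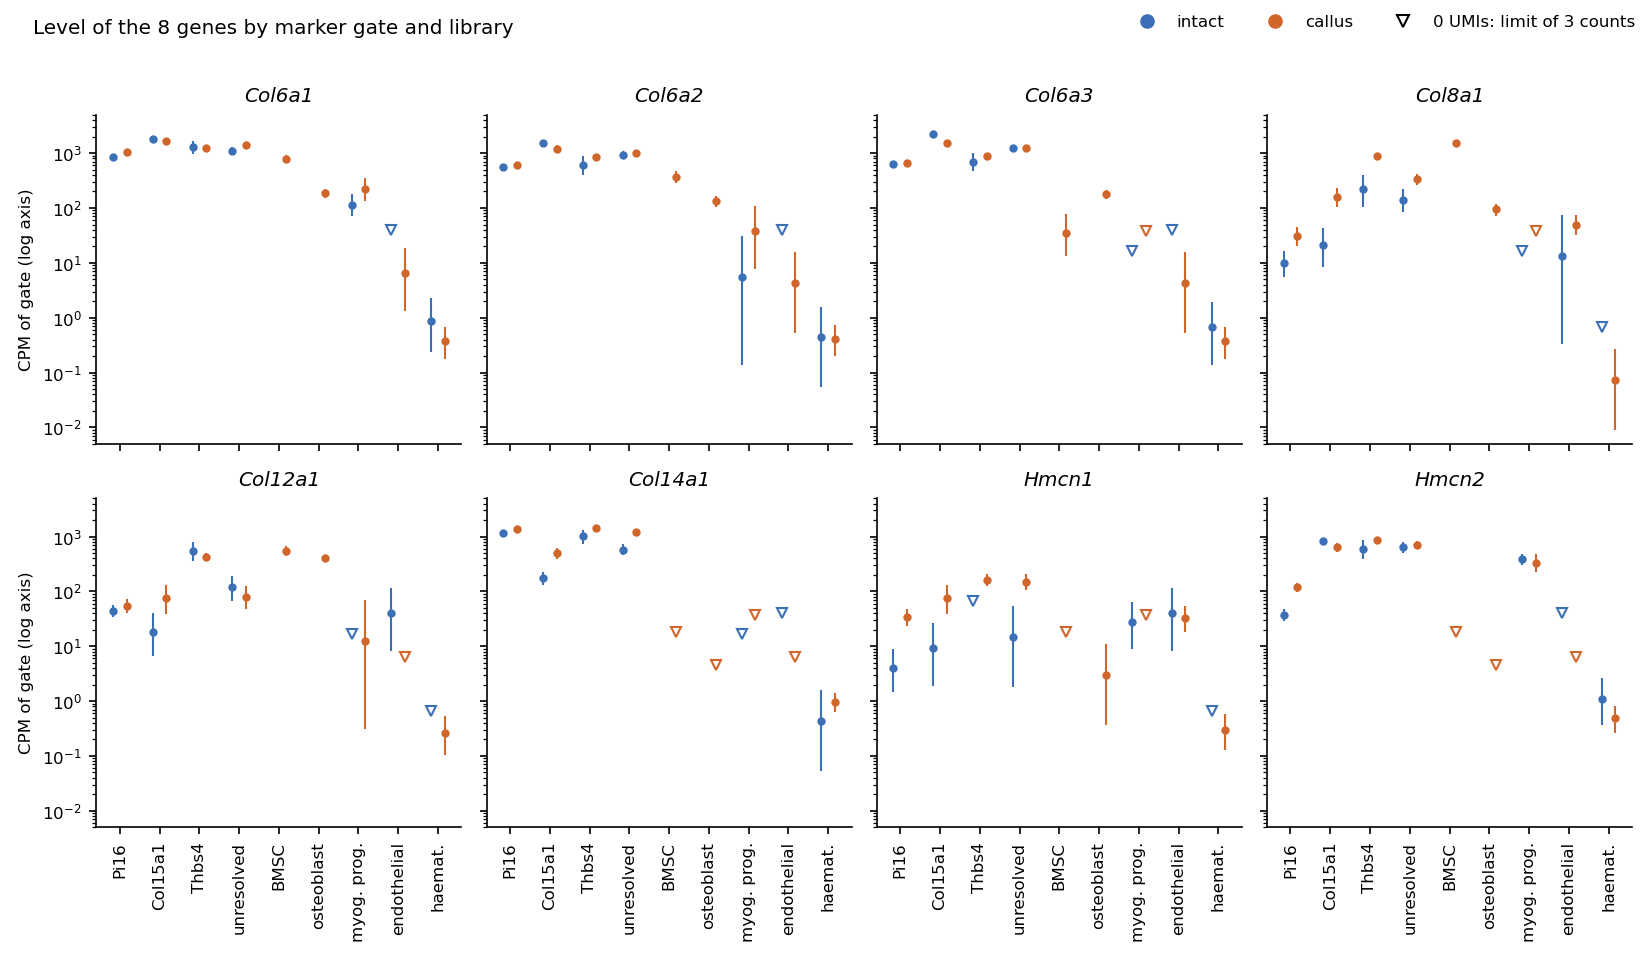
Level of each gene as CPM of the summed UMIs of a gate (log axis) in the intact (blue) and callus (orange) libraries, for gates of at least 6 cells. Points carry 95% exact Poisson intervals, and open triangles mark 0 UMIs at the level of 3 counts. Collagen VI lay between 556 and 2234 CPM in the fibroblast gates, whereas Col8a1 and Hmcn1 stood at 10.0 and 4.01 CPM in intact Pi16-gated cells.

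The 3 chains came apart in the BMSC and myogenic progenitor gates. Of the UMIs of all 3 chains together, Col6a3 supplied 31.2% of 3067 in intact Pi16-gated cells (29.5 to 32.8, exact Clopper-Pearson), 28.5% of 2101 in callus Pi16-gated cells, and 39.8% (37.5 to 42.1) of 1845 in intact Col15a1-gated cells. In BMSC-gated callus cells it supplied 3.00% of 200 (1.11 to 6.42), with 6 UMIs in 5 of 26 cells. Those cells carried Col6a1 in 26 of 26 (784 CPM, 656 to 930) and Col6a2 in 23 of 26 (368 CPM, 282 to 472). Thus 21 of the 26 Col6a1 carriers of the BMSC gate had no Col6a3 UMI, against 16 of 116 in callus Pi16-gated cells and 0 of 20 in callus Col15a1-gated cells. The Col6a3 level of the BMSC gate, 35.6 CPM (13.1 to 77.6), was 18.4-fold lower than in callus Pi16-gated cells (8.40 to 50.3). Col6a1 was 1.31-fold lower (1.09 to 1.59) and Col6a2 1.67-fold lower (1.28 to 2.21) in the same comparison. Median depth was 6872 UMIs per cell in the BMSC gate and 7415 in the callus Pi16 gate.

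In osteoblast-gated callus cells the shares of the 3 chains lay within the range of the fibroblast gates, with collagen VI at a lower level. Col6a3 made up 36.0% (30.8 to 41.5) of their 325 collagen VI UMIs, above the 28.5% (26.6 to 30.5) of callus Pi16-gated cells. Of their 21 Col6a1 carriers 7 had no Col6a3 UMI, and 7 of the 31 cells had no UMI of any chain. Col6a1, Col6a2 and Col6a3 stood at 184, 132 and 178 CPM, 5.60-, 4.65- and 3.69-fold below callus Pi16-gated cells. These are log2 ratios of -2.48, -2.22 and -1.88, where the median of all genes tested was -0.61. The cell with the most UMIs of each chain held 26.4%, 32.2% and 41.0% of the UMIs of that chain. Myogenic progenitor-gated cells resembled the BMSC gate in lacking Col6a3. The intact ones held 21 UMIs of Col6a1 in 15 of 24 cells, 1 UMI of Col6a2 and 0 of Col6a3, and the callus ones 18, 3 and 0 in 9 cells. A count of 0 allows a Col6a3 share of up to 15.4% of the 22 collagen VI UMIs in the intact group.

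**Figure D2:**
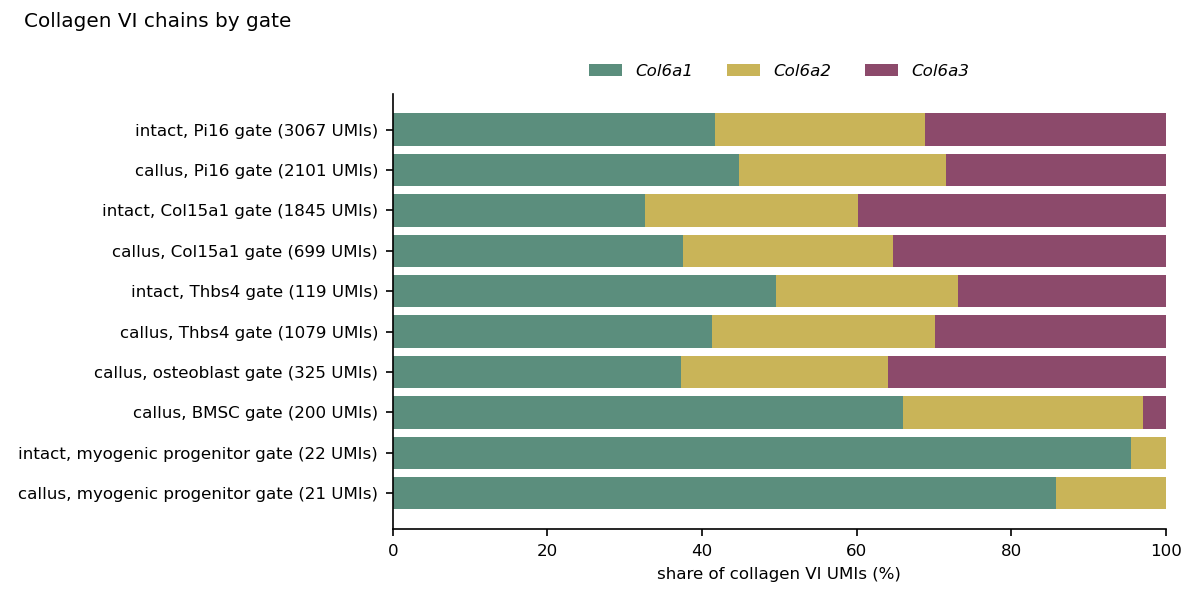
Share of collagen VI UMIs (%) from Col6a1, Col6a2 and Col6a3, stacked to 100, in each gate and library, with the number of UMIs behind each bar. Col6a3 supplied 28.5% to 39.8% in Pi16- and Col15a1-gated cells, 3.00% in the BMSC gate and 0 in myogenic progenitors.

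Col14a1 and Col12a1, the fibril-associated pair, were both high in Thbs4-gated cells and parted in the callus BMSC and osteoblast gates, which held Col12a1 and no Col14a1 UMI. Within fibroblasts 57 of 64 Col12a1 carriers in intact and 65 of 70 in callus also carried Col14a1. Among the other fibroblasts 189 of 221 and 125 of 141 did, so the shares were close with and without Col12a1. Col14a1, which encodes a collagen of mature fibril surfaces, was between 1007 and 1425 CPM in Pi16- and Thbs4-gated cells, lower in Col15a1-gated cells, and at 0 UMIs in the callus BMSC and osteoblast gates. Pi16-gated cells stood at 1169 CPM in intact (1115 to 1225; 200 of 210 cells) and 1356 in callus (1281 to 1433; 118 of 121 cells). Col15a1-gated cells had 174 CPM in intact (131 to 225; 24 of 45 cells) and 500 in callus (396 to 623; 13 of 20 cells). The gap between these gates was 6.74-fold (5.17 to 8.93) in intact and 2.71-fold (2.16 to 3.45) in callus. In an alternative, cells were typed by UMIs of the single genes Pi16 and Col15a1, without the other list genes and without the minimum of 3 UMIs. This leaves no Thbs4 gate and enlarged the callus Col15a1 gate to 39 cells. The callus ratio was then -0.20 on the log2 scale, against -1.44. No Col14a1 UMI was found in 26 BMSC-gated or 31 osteoblast-gated callus cells. With 3 counts per gate in place of 0, levels were 76.1-fold and 298-fold lower than in callus Pi16-gated cells (exact conditional lower limits 61.8 and 242). Among haematopoietic-gated cells 0.270% in intact and 0.837% in callus carried Col14a1.

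Col12a1, which encodes a collagen associated with fibrils of tendon, ligament and bone surfaces, was highest in Thbs4-, BMSC- and osteoblast-gated cells among gates of at least 6 cells. Its level was 44.1 CPM in intact Pi16-gated cells (66 UMIs in 47 of 210 cells) and 54.7 in callus Pi16-gated cells (50 UMIs in 26 of 121 cells). It was 547 CPM in the 6 intact Thbs4-gated cells (354 to 808; 5 of 6 carrying) and 432 in the 38 callus ones (367 to 505; 28 of 38 carrying). In the intact Thbs4 gate, 52.0% of its 25 UMIs were in 1 cell. The BMSC gate reached 546 CPM (440 to 670; 20 of 26 cells) and the osteoblast gate 401 (354 to 452; 18 of 31 cells), where 1 cell held 167 of the 264 UMIs. These were 9.99-fold (7 to 14.4) and 7.33-fold (5.40 to 10.1) above callus Pi16-gated cells. Neighbouring levels in this order overlapped in their intervals among the Thbs4, BMSC and osteoblast gates. The 4 callus cells that scored equally for the BMSC and osteoblast lists stood higher, at 1169 CPM (881 to 1522), with 55 UMIs in 3 cells. Haematopoietic-gated cells carried Col12a1 in 0 of 740 and 6 of 2389 cells. Over all fibroblasts, Col12a1 was 2.51-fold higher in callus (2 to 3.17), whereas within the Pi16 gate it was 1.24-fold higher (0.841 to 1.82) and within the Thbs4 gate 1.27-fold lower (0.796 to 1.94). The share of Thbs4-gated cells among fibroblasts was 6 of 285 in intact and 38 of 211 in callus.

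Col8a1, the collagen VIII alpha-1 chain, was carried by few intact fibroblasts and by more in callus. It was present in 23 of 285 intact fibroblasts (8.07%, 5.18 to 11.9) with 51 UMIs, and in 60 of 211 callus fibroblasts (28.4%, 22.5 to 35.0) with 449 UMIs. When every cell was thinned to 2000 UMIs, 12 of 259 (4.63%, 2.42 to 7.95) and 36 of 193 (18.7%, 13.4 to 24.9) carried it, with expected shares over all possible draws of 4.28% and 18.4%. The background in haematopoietic-gated cells was 0 of 740 in intact, which allows up to 0.405%, and 2 of 2389 in callus (0.0837%). The shares of fibroblasts in both libraries were above this background. The level over all fibroblasts was 25.4 CPM (18.9 to 33.4) in intact and 268 (244 to 294) in callus, a ratio of 10.5 (7.88 to 14.4).

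Within callus, Col8a1 was concentrated in 2 gates. Thbs4-gated cells had 872 CPM (778 to 974) with 31 of 38 cells carrying, and BMSC-gated cells 1520 CPM (1340 to 1718) with 23 of 26. Pi16-gated cells had 30.6 CPM (20.4 to 44.3) with 13 of 121. The Thbs4 and BMSC gates were 28.5-fold (19.3 to 43.5) and 49.6-fold (33.5 to 76.2) above the Pi16 gate. In the Thbs4 gate 1 cell held 102 of the 315 UMIs and the next 27, whereas no BMSC-gated cell held more than 27 of 256. Without the top cell of each gate the Thbs4 ratio was 4.74 on the log2 scale, against 4.83 with it. Together the Thbs4 and BMSC gates supplied 31.6% and 25.7% of the 996 Col8a1 UMIs of kept callus cells. The 4 callus cells that scored equally for the BMSC and osteoblast lists carried a further 90 UMIs, in 4 of 4 cells. Osteoblast-gated cells carried it in 5 of 31 (94.1 CPM, 72.2 to 121), with 38 of 62 UMIs in 1 cell.

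The same order of fibroblast gates was seen in intact at lower levels, 219 CPM in the 6 Thbs4-gated cells (10 UMIs, 4 cells), 21.3 in Col15a1-gated cells (7 UMIs, 5 of 45 cells) and 10.0 in Pi16-gated cells (15 UMIs, 8 of 210 cells). The intervals of the Col15a1 and Pi16 gates, 8.57 to 43.9 and 5.61 to 16.5, overlapped. Within each gate the callus level was higher, by 3.05-fold in Pi16-gated (1.58 to 6.15), 7.42-fold in Col15a1-gated (3.12 to 20.3), 3.98-fold in Thbs4-gated (2.14 to 8.39) and 2.40-fold in unresolved cells (1.44 to 4.18). The Col15a1 value rests on 25 UMIs in 5 of 20 callus cells, 15 of them in 1 cell, and on 7 UMIs in intact. Its count of UMIs falls under the minimum of 20 once the top cells are left out.

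Hmcn1 was the rarest of the 8 genes in the kept intact cells. Only 18 of 1207 cells carried it, 15 of them with 1 UMI, for 21 UMIs in all, and 9 of these cells were fibroblasts (3.16% of 285, 1.45 to 5.91). The 11 UMIs of intact fibroblasts lay in 5 Pi16-gated, 3 Col15a1-gated and 1 unresolved cells. No intact fibroblast held more than 2 UMIs of Hmcn1. In callus 70 of 3295 cells carried it, 35 with 1 UMI, for 188 UMIs, and 42 of these were fibroblasts (19.9% of 211, 14.7 to 25.9). After thinning to 2000 UMIs, 4 of 259 intact cells (1.54%, 0.422 to 3.91) and 13 of 193 callus cells (6.74%, 3.63 to 11.2) carried it, with expected shares of 1.03% and 9.57%. Haematopoietic-gated cells carried Hmcn1 in 0 of 740 intact and 7 of 2389 callus cells (0.293%). The callus share of fibroblasts lay above that background. In intact, the unthinned fibroblast share (1.45 to 5.91%) lay above the exact Clopper-Pearson limit of haematopoietic-gated cells, 0.497%. Those cells were shallower, with a median of 4366 UMIs against 7407 in fibroblasts. After thinning, 0 of 708 haematopoietic-gated cells allows up to 0.520%, which overlapped the thinned interval of fibroblasts. The intact Hmcn1 share was thus above background unthinned, and the thinned intervals did not separate it from background.

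Hmcn1 carriers in callus were spread over the fibroblast gates. They were 17 of 38 Thbs4-gated cells (163 CPM, 124 to 211), 11 of 32 unresolved cells (149 CPM, 104 to 206), 4 of 20 Col15a1-gated cells (75.9 CPM, 39.2 to 133) and 10 of 121 Pi16-gated cells (33.9 CPM, 23.0 to 48.1). The Thbs4 and unresolved gates did not differ beyond their intervals, and both lay above the Pi16 gate. The highest count in a cell was 12 UMIs, reached in the Pi16 and in the Thbs4 gate. No BMSC-gated cell carried Hmcn1, and 1 osteoblast-gated cell did, with 2 UMIs. The callus level exceeded the intact level 8.45-fold in Pi16-gated cells (31 against 6 UMIs; 3.47 to 24.8) and 10.1-fold in unresolved cells (36 against 2 UMIs; 2.60 to 86.7). Of the 31 callus UMIs of the Pi16 gate, 23 lay in 3 of 121 cells, with 12 in 1 cell, so this ratio rests on few cells. After thinning, 1 of 110 callus and 1 of 192 intact Pi16-gated cells carried Hmcn1, with expected shares of 3.10% and 0.479%. In Thbs4-gated cells 59 UMIs stood against 0 in 6 intact cells. With 3 counts in place of 0 this was 2.49-fold higher, and the exact conditional lower limit was 1.96-fold. In Col15a1-gated cells 12 UMIs stood against 3, too few to be counted.

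**Figure D3:**
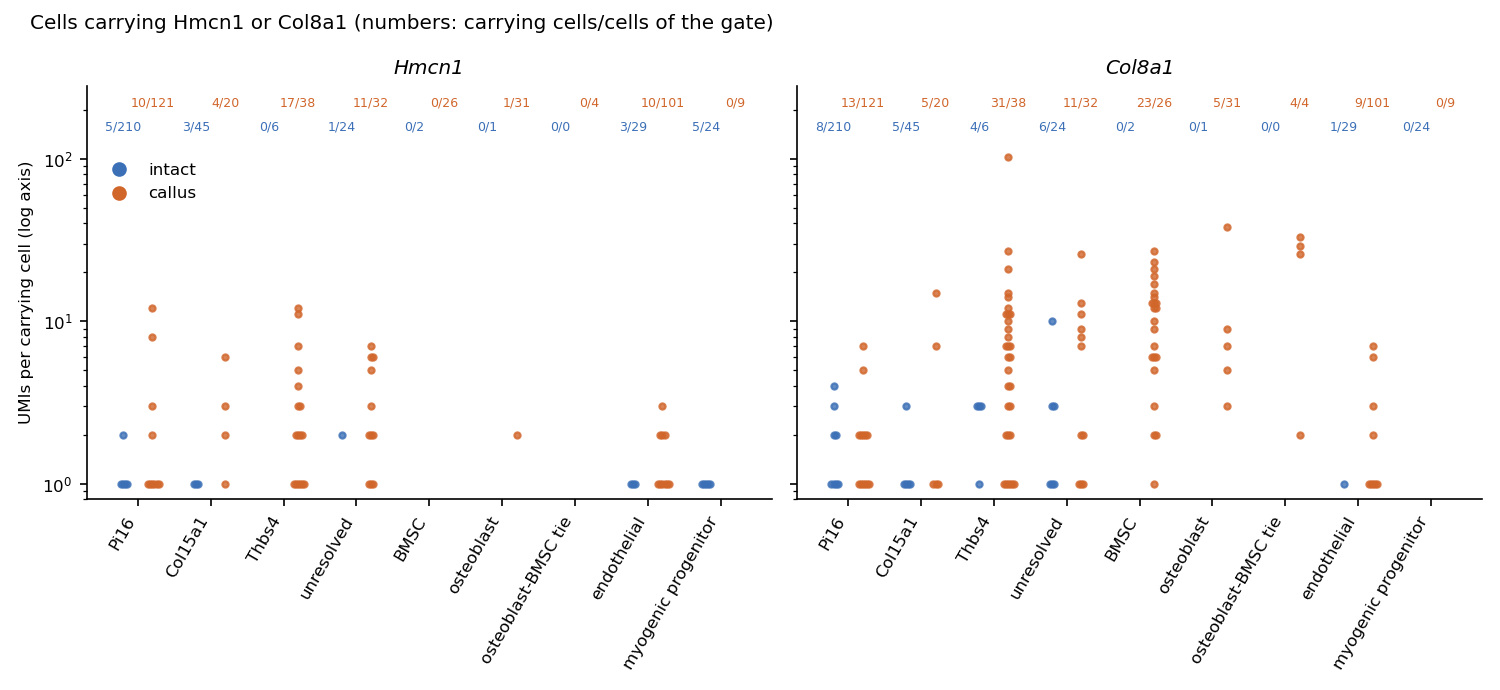
UMIs of Hmcn1 (left) and Col8a1 (right) in each carrying cell (log axis), by gate and library, with the number of carrying cells over all cells of the gate above each column. Most intact carriers of Hmcn1 held 1 UMI, whereas callus Thbs4-gated cells reached 12 UMIs of Hmcn1 and 102 of Col8a1.

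Hmcn2, the second hemicentin, was far more widely carried. In callus both hemicentins ordered the fibroblast gates alike, from Thbs4 through unresolved (712 CPM for Hmcn2) and Col15a1 down to Pi16. The intervals of the Thbs4 and unresolved gates overlapped for both genes. In intact, Hmcn1 had 11 UMIs in fibroblasts, too few to order the gates. Hmcn2 was present in 88 of 285 intact (30.9%, 25.6 to 36.6) and 103 of 211 callus fibroblasts (48.8%, 41.9 to 55.8). Haematopoietic-gated cells carried it in 0.676% and 0.502%. In intact the Col15a1-gated cells stood at 816 CPM (721 to 920; 42 of 45 cells) and the Pi16-gated cells at 37.4 (28.3 to 48.6; 23 of 210 cells), a ratio of 21.8 (16.3 to 29.6). In callus the ratio was 5.3 (4 to 7.02), from 633 CPM (515 to 769; 14 of 20 cells) and 119 (97.9 to 144; 31 of 121 cells). Thbs4-gated cells reached 591 CPM in intact (6 of 6 cells) and 858 in callus (765 to 959; 34 of 38 cells). No UMI was found in the callus BMSC or osteoblast gates. With 3 counts in place of 0, these were 6.69-fold and 26.2-fold lower than callus Pi16-gated cells (exact conditional lower limits 5.35 and 20.9).

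Between libraries Hmcn2 was 3.18-fold higher in callus in Pi16-gated cells (2.29 to 4.48) and 1.29-fold lower in Col15a1-gated cells (1.02 to 1.64). Among Pi16-gated cells, those with fewer than 3 UMIs of Ptx3, Has1 and Tnfaip6 (Ptx3-low) had the larger callus value, 238 CPM (181 to 308; 13 of 44 cells) against 44.9 in intact (24.5 to 75.3; 5 of 69 cells). The other, Ptx3-high cells had 76.1 CPM against 35.5. Median depth of the Ptx3-low cells was 5340 UMIs in callus and 4384 in intact. Myogenic progenitor-gated cells, not taken as Clec3b-lineage, also carried Hmcn2. They had 385 CPM in intact (300.2 to 487) with 21 of 24 cells carrying, and 336 in callus (221 to 488) with 6 of 9. That intact level was 10.3-fold (7.13 to 14.9) above Pi16-gated cells.

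Counted together, 3 of the 8 genes were at least 2-fold apart between callus and intact in Pi16-gated cells (Col8a1, Hmcn1 and Hmcn2, all higher in callus), where 5.91% of 8751 genes with at least 20 UMIs were 2-fold apart either way. In Col15a1-gated cells 2 of 6 were apart (Col8a1 and Col14a1, higher; background 13%), in Thbs4-gated cells 2 of 8 (Col8a1 and Hmcn1, higher; 27.9%), in unresolved cells 3 of 8 (Col8a1, Col14a1 and Hmcn1, higher; 14.3%) and over all fibroblasts 3 of 8 (Col8a1, Col12a1 and Hmcn1, higher; 7.21%). The Thbs4 share lies near its background, and the intact side of that comparison has 6 cells. In the Pi16 gate the Col8a1 and Hmcn1 ratios rest on few callus cells, as given above. Col8a1 was the gene at least 2-fold higher in callus in each of the 4 gates. Median log2 ratios of the 8 genes and of all genes tested were 0.29 and 0.02 in the Pi16 gate and 0.66 and 0.03 over all fibroblasts. In the Col15a1 gate the 6 genes had a median of -0.26 against 0.03.

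**Figure D4:**
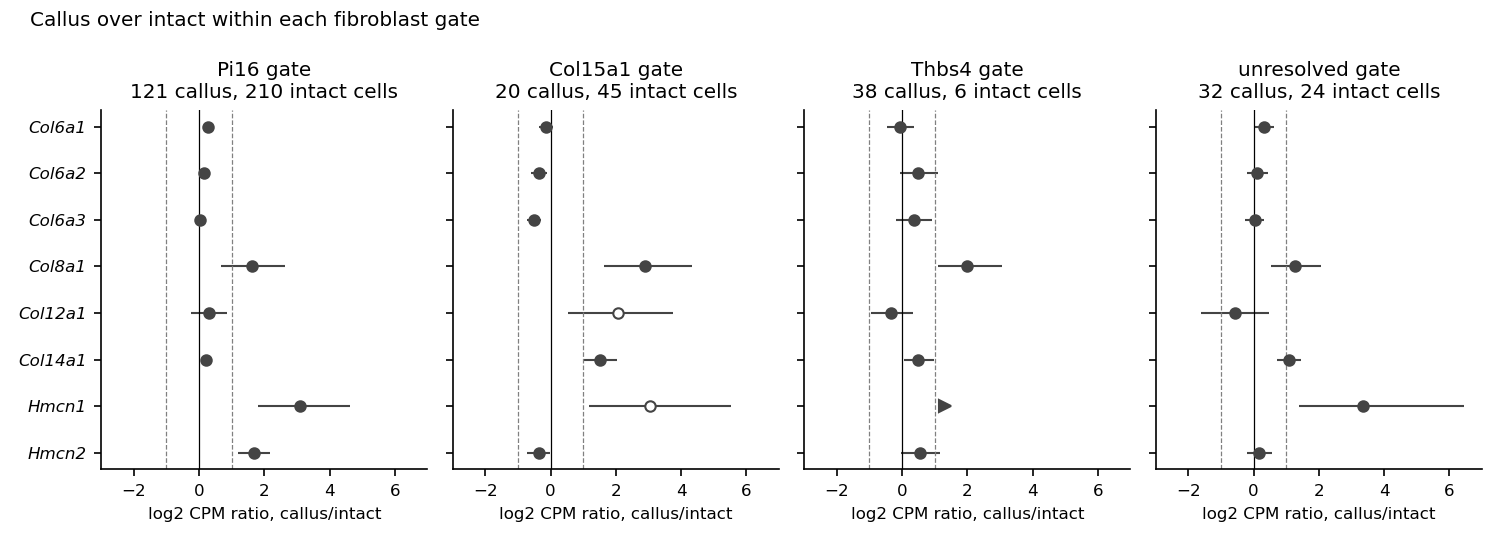
Log2 ratio of CPM, callus over intact, for each gene within each fibroblast gate, with 95% exact conditional intervals. Dashed lines mark 2-fold, open circles ratios with fewer than 20 UMIs over both sides, and the triangle a lower bound against 0 UMIs. Col8a1 lies beyond 2-fold in callus in all 4 gates, and collagen VI lies between the dashed lines in all 4.

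Between gates, 7 of 7 genes with enough UMIs were 2-fold or more apart in intact Col15a1- over Pi16-gated cells, where 20.3% of genes were. Col12a1 and Col14a1 were lower there and the others higher. Of these 7, Col8a1 had an interval that included 1 (0.733 to 5.54). In callus 5 of 8 were apart (Col6a3, Col8a1, Hmcn1 and Hmcn2 higher, Col14a1 lower; background 19.9%). Thbs4- over Pi16-gated cells gave 4 of 8 in callus (Col8a1, Col12a1, Hmcn1 and Hmcn2, all higher; 19.6%) and 3 of 7 in intact (40.9%). The BMSC over Pi16 comparison in callus gave 5 of 8 (34.7%) and the osteoblast over Pi16 comparison 8 of 8 (43.6%), with Col8a1 and Col12a1 higher in both. Median log2 ratios of all genes tested were 0.19 and -0.61 in these comparisons. In the osteoblast gate 1 cell held 38 of 62 Col8a1 UMIs and 1 cell 167 of 264 Col12a1 UMIs, so these ratios rest on few cells. Thbs4-gated cells, set against Col15a1-gated cells in callus, differed in 4 of 8 (15.1%), with Col12a1 5.69-fold (3.16 to 11.2), Col8a1 5.51-fold (3.67 to 8.65), Col14a1 2.85-fold (2.25 to 3.66) and Hmcn1 2.15-fold (1.14 to 4.40) higher. Ptx3-high and Ptx3-low Pi16-gated cells were 2-fold apart in 0 of 6 genes in intact (9.7%) and in 2 of 8 in callus (10.1%), Hmcn2 being 3.13-fold lower in Ptx3-high cells (2.11 to 4.65) and Hmcn1 2.45-fold higher with an interval that included 1 (0.855 to 9.65).

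Among callus fibroblasts, Col12a1 was carried by a larger share of Col8a1 carriers than of other cells, also after thinning. Of 60 Col8a1 carriers 43 also carried Col12a1 (71.7%), against 27 of the other 151 cells (17.9%). After thinning, 15 of 36 carriers (41.7%, 25.5 to 59.2) did, against 18 of 157 others (11.5%, 6.94 to 17.5). Of 42 Hmcn1 carriers 35 carried Hmcn2 (83.3%), against 68 of 169 others (40.2%). After thinning, 9 of 13 (69.2%, 38.6 to 90.9) did, against 64 of 180 (35.6%, 28.6 to 43.0), intervals that overlapped. For the 2 rare genes, 27 of 60 Col8a1 carriers held Hmcn1 (45%), against 15 of 151 others (9.93%). After thinning, 5 of 36 (13.9%, 4.67 to 29.5) and 8 of 157 (5.10%, 2.23 to 9.79) did, and the intervals again overlapped. Carriers were deeper than the rest, with medians of 10242 against 6767 UMIs for Col8a1 and 10550 against 7276 for Hmcn1. Within the Thbs4 gate the thinned shares were close, 12 of 21 Col8a1 carriers against 9 of 17 other cells for Col12a1, and 6 of 7 Hmcn1 carriers against 24 of 31 for Hmcn2. In intact fibroblasts Hmcn2 and Col14a1 went the other way. After thinning, 42.9% of 56 Hmcn2 carriers held Col14a1, against 81.3% of 203 other cells. Within intact Pi16-gated cells the thinned shares were 9 of 13 (69.2%, 38.6 to 90.9) against 155 of 179 (86.6%, 80.7 to 91.2), intervals that overlapped, and unthinned 23 of 23 and 177 of 187 cells carried Col14a1.

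Across 11 groups of gate and library with at least 10 cells, which share 2 libraries, the genes with the most similar log2(CPM + 10) profile among 5839 included Il6st and Itm2a for Col6a1 (Pearson r 0.97 and 0.96) and were Abca8a, Nfib and Lysmd2 for Col6a2 (0.98 to 0.97) and Tuba1a, Ensa and Ltbp4 for Col6a3 (0.97 to 0.94). For Col8a1 they were Ccn2, Fhl2 and Dpysl3 (0.95 to 0.94), for Col12a1 Pdgfa, Ecrg4 and Cdh11 (0.94 to 0.90) and for Col14a1 Ahnak2, Crip1 and Anpep (0.98 to 0.97). For Hmcn1 they were Parp8, Lmna and Gpnmb (0.92 to 0.89) and for Hmcn2 Csgalnact1, Apod and Sparcl1 (0.97 to 0.95). Among the 8 genes themselves, Col6a1 and Col6a2 had r = 0.96 and Col6a1 and Col6a3 0.65. Col8a1 was closest to Col12a1 (0.79), and Hmcn2 to Col6a2 (0.88) and Col6a3 (0.87). These are descriptions over few groups, with no test.

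Of 14 genes for binding partners and receptors of these proteins, 10 had at least 20 UMIs in the callus over intact comparison of Pi16-gated cells, and 2 were at least 2-fold higher in callus, where 5.91% of all genes tested were 2-fold apart either way. They were Bgn, a small proteoglycan that binds collagen VI, at 269 against 52.8 CPM, and Matn2, a matrilin, at 35.0 against 6.69. In Col15a1-gated cells 3 of 10 were higher (Antxr1, Bgn and Matn2) and 1 lower (Vwa1), against 13% of all genes tested. Single partner genes also differed among the callus gates. Eln, encoding elastin, stood at 2961 CPM in Thbs4-gated cells and 487 in Pi16-gated cells. Tnc, encoding tenascin-C, stood at 2904 CPM in BMSC-gated, 515 in osteoblast-gated and 141 in Thbs4-gated cells, with 0 UMIs in Pi16-gated cells. In the 6 intact Thbs4-gated cells Tnc was at 481 CPM (22 UMIs). Of 10 partners tested in callus over intact Thbs4-gated cells, 3 were higher and 2 lower (Tnxb and Tnc), against 27.9% of all genes tested. Itga1, the collagen-binding integrin alpha-1, was at 552 CPM in the BMSC gate and 4.38 in callus Pi16-gated cells. In the BMSC over Pi16 comparison 3 of 12 partners were higher and 5 lower, against 34.7% of all genes tested at least 2-fold apart, the lower ones including Fbn1 and Mfap5, genes of the fibrillin microfibril.

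Among 13 related collagen chains outside the 8, few were detected. In callus over intact of all fibroblasts, 4 had 20 UMIs and 2 were 2-fold higher, Col8a2, the partner chain of Col8a1, with 34 against 9 UMIs (4.52-fold) and Col6a5 with 19 against 6 (3.79-fold), against 7.21% of all genes tested at least 2-fold apart either way. Within the Thbs4 gate, which held most of its UMIs in callus, Col8a2 stood at 63.7 CPM (40.4 to 95.5; 23 UMIs) in callus and 87.5 (23.8 to 224; 4 UMIs) in intact, and the intervals overlapped. It had 1 UMI in the Pi16 gate of each library, and 6 in callus and 0 in intact Col15a1-gated cells. The share of Thbs4-gated cells among fibroblasts, given above, was larger in callus. Col8a2 had 23 UMIs in callus Thbs4-gated cells and 1 in callus Pi16-gated cells, a ratio of 58.2 (9.45 to 2397). It did not follow Col8a1 in the BMSC gate. There Col8a2 had 1 UMI in 26 cells (5.94 CPM, 0.150 to 33.1), whereas Col8a1 stood at 1520 CPM. Col6a6, an alternative to the alpha-3 chain, was 3.67-fold higher in Col15a1- than in Pi16-gated intact cells, the same direction as Col6a3. In callus these gates stood at 133 CPM (82.2 to 203) and 105 (85.1 to 128) for Col6a6, intervals that overlapped. Callus Thbs4-gated cells had 208 CPM (163 to 260). In the callus BMSC gate and the myogenic progenitor gates of both libraries, where Col6a3 was low or at 0, Col6a4, Col6a5 and Col6a6 had 0 UMIs. With 3 counts in place of 0 this allows up to 17.8 CPM in the BMSC gate. The corresponding limits for myogenic progenitors were 16.5 CPM in intact and 37.3 in callus. Col22a1, a collagen of tissue junctions, had 215 UMIs in osteoblast-gated cells and 0 in callus Pi16-gated cells. With 3 counts in place of 0 this was 99.5-fold higher.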

How the data were processed

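Cells sorted for tdTomato were sequenced as 2 10x Genomics 3′ libraries, 1 per condition. The deposited files hold raw UMI counts per gene and cell, which the authors made with Cell Ranger (6.0.0 in the matrix headers) on mm10. The authors then used Seurat. Here counts were read as deposited. A barcode needed 500 genes or more and no more than 10% of UMIs from mitochondrial transcripts. Every value column belonged to 1 of the samples.

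A cell was stromal with UMIs of at least 3 of 8 stromal markers and no call for haematopoietic, endothelial, mural, myogenic, glial (3 of 8 markers) or myofibre (over 1% of UMIs) lists. Stromal cells with at least 3 of 8 osteoblast or 3 of 5 BMSC markers were set aside. Fibroblast types needed at least 3 UMIs of their list and 2 times the next list; otherwise they were unresolved. Ptx3-high cells were Pi16-gated with at least 3 UMIs of Ptx3, Has1 and Tnfaip6. No gate gene is one of the 8 genes.

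UMIs were summed per gate and library and scaled to 1000000. Depth of gated fibroblasts ran from 839 to 17371 UMIs in intact and from 940 to 22334 in callus. Levels have 95% exact Poisson intervals, shares Clopper-Pearson intervals and ratios exact conditional binomial intervals, and a count of 0 was given a limit of 3 counts. Shares were also computed after thinning cells to 2000 UMIs (seed 0). A gene was counted as apart at 2-fold with at least 20 UMIs over both sides. With 1 library per condition there was no test. The scripts were tested on simulated data with known ratios.

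All 8 genes are named, with the 3 genes of most similar profile for each (at least 100 UMIs in stromal cells) and the list genes 2-fold apart. Of these, 1 gene of similar profile is not reported here. The members, gates and lists were chosen with earlier results of these data known. Scrublet called 3 intact and 4 callus doublets (0.249% and 0.121%), too few to count as working, so none were removed; an alternative removed the 12 and 87 highest scores. Gene positions came from GENCODE M21, which held 32158 of 32285 gene identifiers. Analyses used Python 3.11.15, numpy 2.4.6, scipy 1.17.1, pandas 2.3.3 and scanpy 1.11.5. Other cell filters, a stricter stromal gate, typing by the single genes Pi16 and Col15a1 in place of the lists, other totals and means, and other thinning depths were tried.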

Additional observations from a re-analysis of the deposited data

Results flagged for a closer look

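Hmcn2 differed between callus and intact in opposite directions in 2 fibroblast gates. The log2 ratio was 1.67 in Pi16-gated cells (1.19 to 2.16) and -0.37 in Col15a1-gated cells (-0.71 to -0.03), and the difference between these was not tested, since each condition was 1 library.

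UMIs of the 8 genes were also present in cells outside the gates described. Barcodes that failed the cell filter held 65 UMIs of these genes in intact and 166 in callus, of which 15 and 29 barcodes had a stromal call. Cells with markers of more than 1 lineage, 12 in intact and 123 in callus, held 45 and 266 UMIs of Col6a1, 14 and 176 of Col6a2, 30 and 148 of Col6a3, 29 and 135 of Col14a1, and 7 and 30 of Hmcn2. In the callus these mixed cells further held 111 UMIs of Col8a1, 47 of Col12a1 and 21 of Hmcn1, above the levels of haematopoietic-gated cells.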

How the results depend on the processing

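No paired analysis was possible because the labels carry no replicate numbers and each condition is 1 library. Of 97 alternative values for the 12 counts and shares, 78 stayed within the spread set for them and 19 moved. The shares of fibroblasts carrying Hmcn1 and Col8a1 depended on depth and on the positive call. For Hmcn1 in intact the share was 0.357% at 1000 UMIs, 0 when 2 UMIs were required, and 0.389% with 1000 genes or more and no more than 5% mitochondrial transcripts. For Hmcn1 in callus it was 19.9% without thinning, 1.55% with 2 UMIs and 11.5% under the stricter cell filter. For Col8a1 it was 1.43% and 13.4% at 1000 UMIs in intact and callus, 8.07% and 28.4% without thinning, and 0.772% and 7.77% with 2 UMIs. At this depth the intact shares rest on few cells.

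The count of genes 2-fold apart in callus over intact Col15a1-gated cells, 2 of 6, was 1 with a stricter stromal gate, 1 with the highest doublet scores removed and 1 without the cell with the most UMIs of each gene (a setting added once values were known). The count was 4 with typing by the single genes Pi16 and Col15a1 and 4 with a minimum of 1 UMI. In Thbs4-gated cells the count was 1 without the top cell, since the Hmcn1 log2 ratio was then 0.71 with 3 counts in place of 0. In Col15a1- over Pi16-gated callus cells it was 3 with typing by these single genes. For single genes 491 of 517 values stayed, 26 moved and 0 were reversed. With typing by the single genes Pi16 and Col15a1, Pi16-gated cells had callus over intact log2 ratios of 3.52 for Col8a1, 2.59 for Hmcn2 and 1.04 for Col12a1. With the highest doublet scores removed, Col8a1 in Col15a1- over Pi16-gated callus cells was 1.19 instead of 2.37.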

Other observations

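Endothelial-gated cells, not taken as Clec3b-lineage, also held a few UMIs of both rare genes. Hmcn1 had 3 UMIs in 3 of 29 intact endothelial-gated cells (40.1 CPM, 8.27 to 117) and 15 UMIs in 10 of 101 callus ones (32.4 CPM, 18.1 to 53.5). Col8a1 had 1 UMI in intact and 23 UMIs in 9 of 101 callus cells (49.7 CPM, 31.5 to 74.6). In these cells Col14a1 and Hmcn2 had 0 UMIs in both libraries, Col6a1 had 0 in intact and 3 in callus, and the markers of fibroblasts summed to 80 CPM in intact and 61 in callus. Intact myogenic progenitor-gated cells held 5 UMIs of Hmcn1 in 5 of 24 cells (27.5 CPM, 8.93 to 64.2), and the 9 callus ones held 0. In intact, Hmcn1 was lower in fibroblasts than in these endothelial and myogenic cells, at 5.48 CPM (2.74 to 9.81), with intervals that overlapped. In callus it was higher in fibroblasts, at 82.4 CPM (69.2 to 97.3). Of all Hmcn1 UMIs in kept cells, fibroblasts supplied 52.4% of 21 in intact and 73.4% of 188 in callus.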
